A study of Mus musculus with 4 samples.

Results

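The genes described here are 10 amino acid transporters of the plasma membrane, taken by gene symbol from a table of 22138 genes: Slc7a1, Slc7a3, Slc7a5, Slc7a11, Slc3a2, Slc1a4, Slc1a5, Slc38a1, Slc38a2 and Slc6a9. All 10 were found in the table. RNA was sequenced from TT2 cells, a female embryonic stem cell line of the mouse (strain C57BL/6xCBA) grown without feeder cells in medium with serum and LIF, the cytokine that holds such cells undifferentiated. The groups were cells given control siRNA (n = 2) and cells given siRNA against Hnrnpk (n = 2, the knockdown), the gene for the RNA- and DNA-binding protein hnRNP K. Each culture was transfected at 100 nM and again 24 hours later at 50 nM, and RNA was taken about 72 hours after the second transfection. The model is thus 1 cell line with a transient knockdown; the siRNA sequences were not given in the sources used here. Replicates are called biological in the series, but whether they were grown as separate cultures is not given, so p-values measure the spread between these libraries. The comparison asked how the transcript of each transporter stood after Hnrnpk knockdown.

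Amino acids cross the plasma membrane on carriers of the solute carrier (SLC) families. Some act as exchangers that swap an amino acid inside the cell for another outside, and others use the sodium gradient to concentrate glutamine, alanine or glycine inside the cell. Imported leucine, arginine and glutamine feed protein synthesis and the mTORC1 growth pathway, and imported cystine supplies cysteine for glutathione. Several of these carrier genes are textbook targets of ATF4, the transcription factor made when amino acids run short, and Slc1a5 and Slc7a5 are also known targets of MYC. Mouse embryonic stem cells are known to depend on glutamine and threonine from the medium.

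Values are RPKM, reads scaled to transcript length and library size, so levels can be compared between genes. Hnrnpk itself stood at 236 and 226 RPKM after control siRNA and at 68.0 and 70.5 RPKM after Hnrnpk siRNA. The libraries summed to 359659 and 362836 RPKM in the controls and to 377825 and 390467 RPKM after Hnrnpk siRNA. Relative to control replicate 1, low values gave depths of 0.982 for control replicate 2 and 0.891 and 0.882 for the knockdown libraries. These depths rest on the commonest ratio, shared by 108 of 2712, 66 of 2354 and 80 of 2376 genes compared. All 8 embryonic stem cell markers checked, among them Pou5f1 and Nanog, stood between 87.3 and 988 RPKM as control means, as the label of the cells implies. Their summed RPKM was 2566 and 2462 in the controls and 2399 and 2424 in the knockdown libraries. By limma, 2 of the 8 were called higher, 2 lower and 4 not called. Over all genes tested 67.2% were called, 32.2% higher and 35.0% lower. Summed RPKM of 6 primitive endoderm markers was 5.20 and 5.17 in the controls and 30.3 and 30.9 in the knockdown libraries. All 5 of these that were tested were called higher by limma, beside 32.2% of all genes tested. Of these, Pdgfra had a control mean of 0.170 RPKM and entered the test only through the group where it was high. For 6 trophectoderm markers the sums were 46.0 and 37.0 against 44.6 and 44.8, but most of each sum was Tfap2c, which fell from a mean of 37.9 to 28.4 RPKM. The other 3 trophectoderm markers tested rose, Eomes from 1.32 to 5.16, Gata3 from 0.575 to 5.30 and Hand1 from 1.35 to 5.03 RPKM. For 8 fibroblast markers the sums were 10.6 and 8.86 against 5.95 and 6.00. Among 3 tested, 1 was called higher and 2 lower, where 67.2% of all genes tested were called in either direction. None of the markers was at 0 in all libraries, and the part of other cell types in the results below was not tested. In such bulk RNA, fewer cells of a type and less RNA per cell cannot be told apart.

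The control libraries stood apart from each other on these genes. Control replicate 2 was above control replicate 1 for all 9 transporters that were tested, against 42.7% of all genes tested, and it was above for Slc7a11 too. The median gap for the 9 was 0.31 on the log2(RPKM + 0.5) scale, where the median over all genes tested was -0.023. A gap of at least 0.3 in that direction was seen in 5 of the 9 transporters and in 1.48% of all genes tested. The knockdown libraries lay close together, with gaps of at most 0.099 in size for the 9 genes. Each transporter's change is therefore given with and without each control library. Without a control library, the fit assumes that the remaining one varies as the other libraries do. P-values of such a fit therefore do not measure the gap between the controls.

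**Figure D1:**
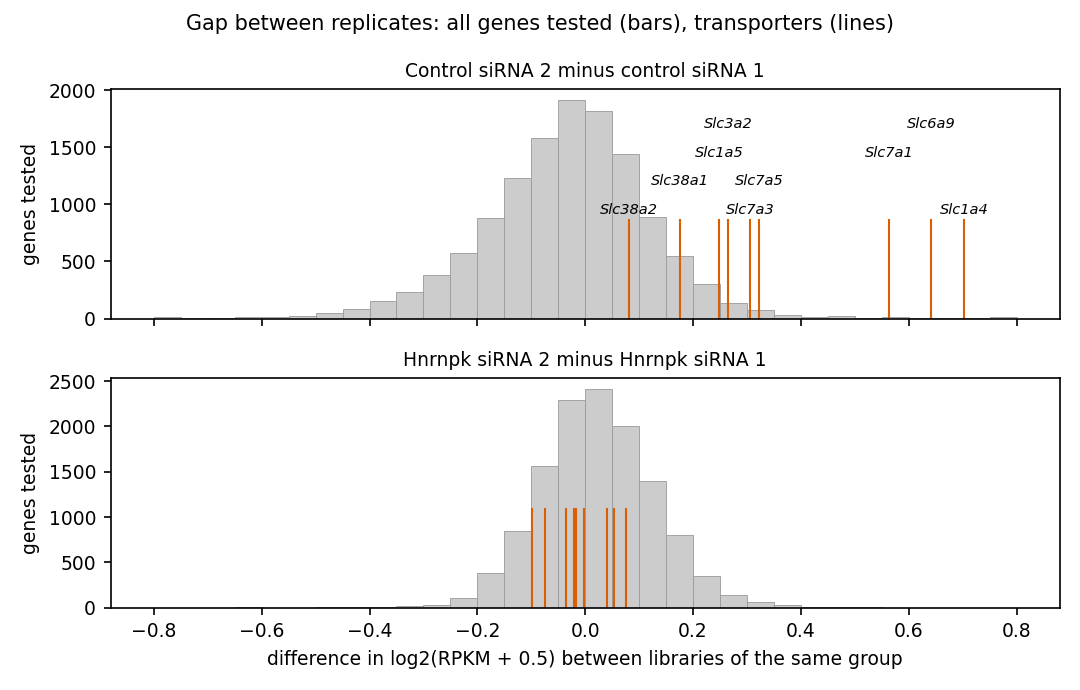
Histograms of the difference in log2(RPKM + 0.5) between libraries of the same group over the 12486 genes tested, with the 9 tested transporters as vertical lines; values beyond 0.8 in size are in the end bins. In the upper panel (control replicate 2 minus control replicate 1) all 9 lines lie to the right of 0, and in the lower panel (Hnrnpk siRNA replicate 2 minus 1) they lie within 0.099 of it.

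Transcripts of 5 of the 9 tested transporters fell after Hnrnpk siRNA, and none rose by limma; all 9 changes were below 0, so none was higher at an unadjusted p under 0.05 either. The falls were in Slc1a4, Slc1a5, Slc7a3, Slc6a9 and Slc7a5. Over all 12486 genes tested 67.2% were called in either direction, 35.0% lower and 32.2% higher, by limma at a Benjamini-Hochberg adjusted p under 0.05. The transporters' median log2 change was -0.25, beside -0.015 for all genes tested. Slc7a11 stayed below the mean of 0.5 RPKM required for testing. Both knockdown libraries lay below both control libraries for 7 of the 9, where 43.5% of all genes tested did so; over those genes 41.2% lay above, and 84.7% did not overlap in either direction. Without control replicate 1 the count was 8 lower, and without control replicate 2 it was 4 lower and 1 higher; without knockdown replicate 2 it was 3 lower. Slc1a4, Slc1a5 and Slc7a3 were called lower under all 13 alternatives, including each left-out library.

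**Figure D2:**
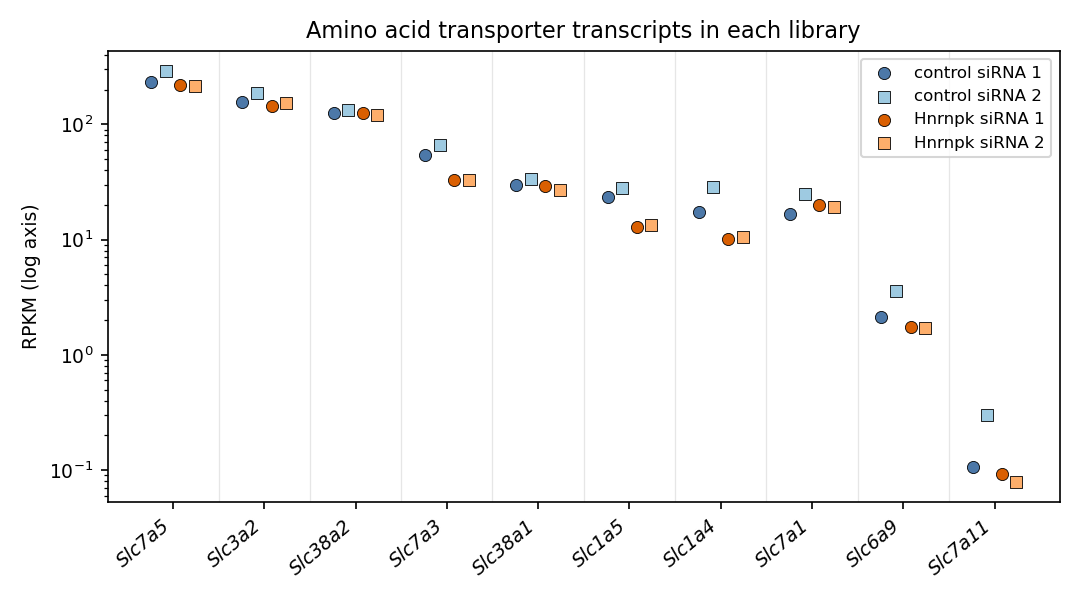
RPKM of the 10 transporters in each of the 4 libraries on a log axis, ordered by mean control level; each point is 1 library. Slc7a5 was at the top with 216 to 288 RPKM and Slc7a11 at the bottom with 0.0795 to 0.304 RPKM, and control replicate 2 was the highest point for every gene.

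**Figure D3:**
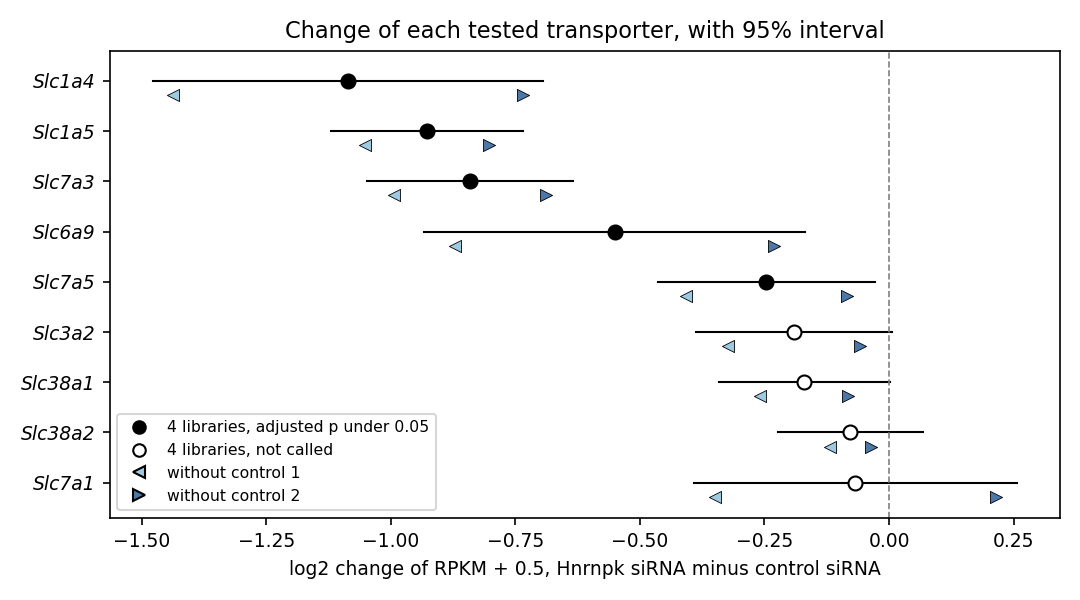
Log2 change of RPKM + 0.5 (Hnrnpk siRNA minus control siRNA) for the 9 tested transporters, with 95% intervals from limma as bars and called genes filled; triangles show the change without control replicate 1 or 2. Slc1a4, Slc1a5 and Slc7a3 lay furthest below 0, at -1.09, -0.93 and -0.84, and Slc7a1 lay on either side of 0 depending on the control library left out.

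The deepest falls were in the sodium-dependent exchangers of small neutral amino acids. Slc1a4 (ENSMUSG00000020142; GRCm38 chromosome 11, 20302180 to 20332713, minus strand) encodes ASCT1, which exchanges alanine, serine, cysteine and threonine. It stood at 17.5 and 28.8 RPKM in control replicates 1 and 2, and at 10.2 and 10.5 RPKM in Hnrnpk siRNA replicates 1 and 2. The groups did not overlap, although the control libraries differed widely. The means were 23.1 ± 7.98 and 10.3 ± 0.219 RPKM (SD, n = 2 per group), a ratio of 0.446. This was a log2 change of -1.09 (SE 0.174, 95% interval -1.48 to -0.70, limma adjusted p = 0.000405). It was -1.44 without control replicate 1 and -0.74 without control replicate 2. Of all genes tested, 3.38% had a lower log2 change.

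Slc1a5 (ENSMUSG00000001918; GRCm38 chromosome 7, 16781340 to 16798274, plus strand) encodes ASCT2, a main route of glutamine into dividing cells. Its values were 23.4 and 27.9 RPKM after control siRNA and 12.9 and 13.4 RPKM after Hnrnpk siRNA. The knockdown libraries were both far below the controls, and the control libraries were closer together than for Slc1a4. With means of 25.6 ± 3.17 and 13.2 ± 0.357 RPKM (SD, n = 2 per group), the ratio was 0.515. Its log2 change was -0.93 (SE 0.0862) at a limma adjusted p of 1.27e-05, and -1.05 or -0.80 without control replicate 1 or 2. Slc1a5 over Slc1a4 was 1.34 and 0.968 in the controls and 1.27 and 1.28 in the knockdown libraries, which overlapped. The summed RPKM of the pair went from 48.7 ± 11.2 to 23.5 ± 0.575 (SD, n = 2 per group).

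Among the cationic carriers, which bring in arginine and lysine, Slc7a3 fell and Slc7a1 did not pass the test. Slc7a3 (ENSMUSG00000031297; GRCm38 chromosome X, 101079210 to 101086020, minus strand) encodes CAT3, known from embryonic cells and brain. It was at 53.7 and 66.5 RPKM in the controls and at 33.2 and 33.1 RPKM in the knockdown libraries. The groups were well apart, with nearly equal values after Hnrnpk siRNA. The log2 change was -0.84 (SE 0.0921, 95% interval -1.05 to -0.63, limma adjusted p = 3.46e-05), from means of 60.1 ± 9.05 to 33.1 ± 0.0510 RPKM (SD, n = 2 per group). Leaving out control replicate 1 or 2 gave -0.99 or -0.69.

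Slc7a1 (ENSMUSG00000041313; GRCm38 chromosome 5, 148327410 to 148399904, minus strand) encodes CAT1, the widely expressed arginine carrier. Its values of 19.8 and 19.3 RPKM after Hnrnpk siRNA lay between the control values of 16.8 and 25.0 RPKM. The log2 change of -0.068 (SE 0.144, 95% interval -0.39 to 0.26, limma adjusted p = 0.694) was not called. Its direction depended on the control library. It was -0.35 without control replicate 1 (adjusted p = 0.00126) and 0.21 without control replicate 2 (adjusted p = 0.0254), over adjusted p-values of 0.00126 to 0.896 among the 13 alternatives. Within a library, Slc7a1 over Slc7a3 was 0.313 and 0.377 after control siRNA and 0.597 and 0.583 after Hnrnpk siRNA. That ratio did not overlap between the groups, but with 2 libraries against 2 the exact two-sided permutation test gave p = 0.333, the smallest it can give. By mean level Slc7a1 was the 8th of the 10 transporters after control siRNA and the 6th after Hnrnpk siRNA, above Slc1a5 and Slc1a4.

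**Figure D4:**
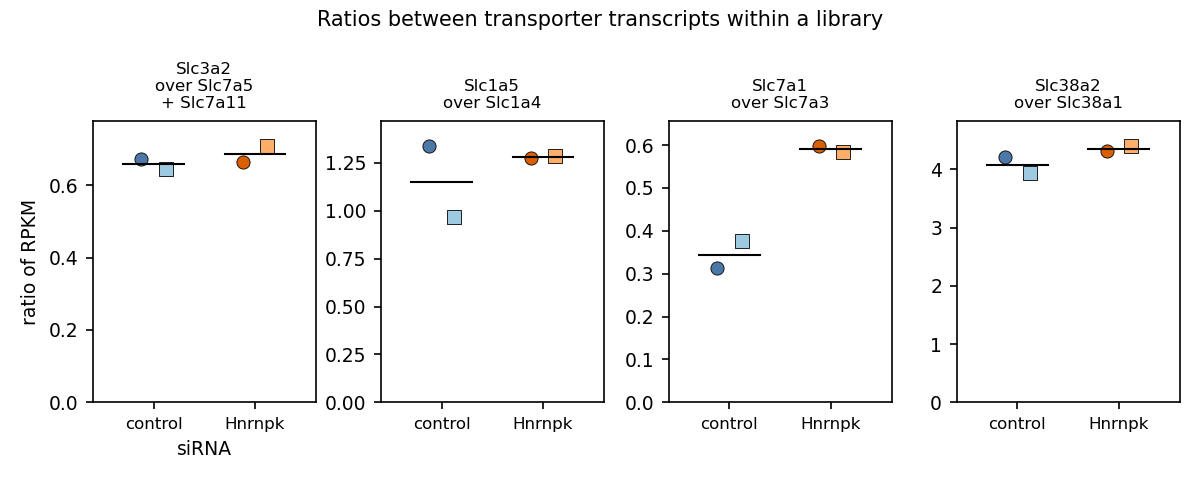
Ratios of RPKM between partner or paralog transcripts within each library, from 0 upward; points are libraries (circle for replicate 1, square for replicate 2) and lines are group means. Slc7a1 over Slc7a3 was near 0.34 after control siRNA and near 0.59 after Hnrnpk siRNA, and the points of Slc1a5 over Slc1a4 overlapped between the groups.

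The heterodimeric exchangers pair a shared heavy chain with a light chain that carries the substrate. Slc7a5 (ENSMUSG00000040010; GRCm38 chromosome 8, 121881150 to 121907694, minus strand) encodes LAT1, the light chain that imports leucine and other large neutral amino acids. It was the most abundant of the 10, at 230 and 288 RPKM in the controls and 218 and 216 RPKM in the knockdown libraries. The groups did not overlap, but control replicate 1 was close to the knockdown libraries. Means of 259 ± 40.9 and 217 ± 1.74 RPKM (SD, n = 2 per group) gave a log2 change of -0.25 (SE 0.0973) at a limma adjusted p of 0.0467. Without control replicate 1 the change was -0.41, and without control replicate 2 it was -0.085 (adjusted p = 0.413). The call was also lost without knockdown replicate 1 or 2 (adjusted p = 0.0793 and 0.0993), and 6 of 13 alternatives kept it, with adjusted p-values from 0.00125 to 0.413.

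Slc3a2 (ENSMUSG00000010095; GRCm38 chromosome 19, 8706882 to 8723369, minus strand) encodes the CD98 heavy chain, which brings LAT1 and other light chains to the membrane. It stood at 155 and 186 RPKM after control siRNA and at 145 and 153 RPKM after Hnrnpk siRNA. The groups were adjacent without overlapping. The log2 change of -0.19 (SE 0.0880, 95% interval -0.39 to 0.0069, limma adjusted p = 0.0799) was not called, but it was called at -0.32 without control replicate 1 (adjusted p = 0.00507). It was -0.058 without control replicate 2, and the adjusted p ranged from 0.00494 to 0.569 among the alternatives. Slc3a2 over the sum of Slc7a5 and Slc7a11 was 0.673 and 0.646 in the controls and 0.664 and 0.708 in the knockdown libraries. These ratios overlapped between the groups.

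Slc7a11 (ENSMUSG00000027737; GRCm38 chromosome 3, 49892526 to 50443614, minus strand) encodes xCT, the cystine and glutamate exchanger that also needs the CD98 heavy chain. It was barely present, at 0.106 and 0.304 RPKM in the controls and 0.0931 and 0.0795 RPKM in the knockdown libraries. Control replicate 2 was the high library, and control replicate 1 was close to the knockdown libraries. The difference between groups was -0.25 on the log2(RPKM + 0.5) scale, -0.46 without control replicate 1 and -0.048 without control replicate 2. With no filter on low values, limma gave it an adjusted p of 0.194.

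Promoter letters are shown for Slc7a11 and Slc1a4, the members whose window held the 8-letter core TGATGCAA, a sequence that dimers of ATF4 and C/EBP factors are known to bind. RefSeq promoter windows on GRCm38.p6 (250 bases before to 50 after a start) were given for 6 of the 10 members, in 9 windows. Slc7a3, Slc7a5, Slc1a5 and Slc38a1 had no window. Capitals mark the core or its reverse complement TTGCATCA, and each stretch is written 5′ to 3′ on the strand of the gene, the minus strand in both (chr3:50443614-50443719 and chr11:20332710-20332757).
Slc7a11: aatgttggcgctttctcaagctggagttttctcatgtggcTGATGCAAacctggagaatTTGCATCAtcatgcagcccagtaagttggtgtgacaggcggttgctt
Slc1a4: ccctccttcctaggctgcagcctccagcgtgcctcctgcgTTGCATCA
The Slc7a11 stretch held 2 copies in opposite orientation, starting 66 and 47 bases before the transcript. The Slc1a4 copy started 4 bases before the transcript and ran 4 bases into it. The core was chosen after the letters had been seen and was found, on either strand, in 0.895% of all 32851 windows. The longer form TGATGNAAT, which contains the core only where N is C, was in no member window and in 0.965% of all windows. An E-box, CACGTG, was in no member window and in 7.15% of all. The antioxidant response core TGACNNNGC was in windows of Slc6a9, Slc7a1 and Slc38a2 and in 12.4% of all. A match is a description of letters and not a measured binding site.

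Neither sodium-coupled carrier of the SNAT family passed the test. Slc38a2 (ENSMUSG00000022462; GRCm38 chromosome 15, 96687392 to 96699730, minus strand) encodes SNAT2, the carrier that cells raise when amino acids are scarce. It stood at 126 and 133 RPKM after control siRNA and 126 and 119 RPKM after Hnrnpk siRNA, and the groups overlapped. The log2 change was -0.077 (SE 0.0652, 95% interval -0.22 to 0.069, limma adjusted p = 0.316), and -0.12 or -0.037 without control replicate 1 or 2. Slc38a1 (ENSMUSG00000023169; GRCm38 chromosome 15, 96571418 to 96642913, minus strand) encodes SNAT1, a glutamine carrier, and its gene lies beside Slc38a2. Its values were 29.8 and 33.7 RPKM against 29.1 and 27.1 RPKM, adjacent without overlap. The log2 change was -0.17 (SE 0.0764, 95% interval -0.34 to 0.0015, limma adjusted p = 0.0733), and -0.26 without control replicate 1 (adjusted p = 0.0118) and -0.082 without control replicate 2; the adjusted p ranged from 0.0118 to 0.380 among the alternatives. Slc38a2 over Slc38a1 was 4.22 and 3.94 in the controls and 4.32 and 4.40 in the knockdown libraries.

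The glycine carrier fell from a low level. Slc6a9 (ENSMUSG00000028542; GRCm38 chromosome 4, 117834506 to 117875198, plus strand) encodes GlyT1, which takes up glycine with sodium and chloride. It stood at 2.12 and 3.59 RPKM in the controls and at 1.75 and 1.72 RPKM in the knockdown libraries. The groups did not overlap, and control replicate 1 was the nearer to the Hnrnpk siRNA values. Its log2 change was -0.55 (SE 0.170) at a limma adjusted p of 0.0164. It was -0.87 without control replicate 1 and -0.23 without control replicate 2 (adjusted p = 0.0330). The call was lost without knockdown replicate 2 (adjusted p = 0.0516), and 9 of 13 alternatives kept it, with adjusted p-values from 9.60e-07 to 0.107. Its exons overlap those of Ccdc24 on the opposite strand over 1429 of 5141 bases, and the strand setting of the counting is not given, so reads of the genes may not be told apart. Ccdc24 was listed at 0.510 and 0.381 RPKM in the controls and at 0.339 and 0.331 RPKM in the knockdown libraries.

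By level, the transporters kept much the same order in both groups. Slc7a5, Slc3a2, Slc38a2, Slc7a3 and Slc38a1 held the first 5 places after either siRNA, with Slc6a9 and Slc7a11 last. In the control libraries the ranges of Slc1a5 (23.4 to 27.9 RPKM), Slc1a4 (17.5 to 28.8 RPKM) and Slc7a1 (16.8 to 25.0 RPKM) overlapped, so their order is not resolved. After Hnrnpk siRNA the ranges of these 3 genes did not overlap. Slc7a5, Slc3a2 and Slc38a2 made up 78.1% and 76.6% of the summed RPKM of the 10 in the controls and 82.1% and 82.3% in the knockdown libraries. The sum itself was 654 and 793 RPKM after control siRNA and 596 and 593 RPKM after Hnrnpk siRNA, a ratio of means of 0.822 that was 0.909 against control replicate 1 alone and 0.750 against control replicate 2 alone.

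Of 34 other plasma membrane amino acid transporters in the list, 19 were tested, with 4 called higher and 8 lower by limma and a median log2 change of -0.082. That is 63.2% called, beside 67.2% of all genes tested. Slc6a6, the taurine carrier, fell from 46.8 ± 3.80 to 21.1 ± 0.365 RPKM (SD, n = 2 per group; log2 change -1.13, limma adjusted p = 1.36e-06). Slc38a3, the glutamine carrier SNAT3, fell by 1.59 on the log2 scale from 4.29 ± 0.792 to 1.09 ± 0.0153 RPKM, and Slc16a10, a carrier of aromatic amino acids, fell by 0.96 from a control mean of 1.45 RPKM. Slc1a3, the glutamate carrier GLAST, fell by 0.79. Slc1a1, a carrier of glutamate and cysteine, rose from 0.261 ± 0.0479 to 1.28 ± 0.0628 RPKM (log2 change 1.23, limma adjusted p = 5.69e-06). Its control mean was under 0.5 RPKM, so it was tested only through the group where it was high. Slc38a4, a SNAT carrier at 69.9 and 74.1 RPKM as group means, had a log2 change of 0.085 and was not called.

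Genes that report amino acid supply to mTORC1 were called 7 higher and 8 lower among 24 tested, with a median log2 change of 0.034. That is 62.5% called, beside 67.2% of all genes tested. Flcn (folliculin) rose by 1.20 and Rragc, a Rag GTPase that folliculin acts on, by 1.12 on the log2 scale. Lamtor1, the lysosomal anchor of the Rag GTPases, rose from 74.2 ± 0.402 to 138 ± 17.6 RPKM (SD, n = 2 per group; log2 change 0.88). Rragb, another Rag GTPase, fell from 15.5 ± 0.119 to 6.88 ± 0.132 RPKM (SD, n = 2 per group; log2 change -1.12), and Castor1, the arginine sensor, fell from 57.7 ± 1.52 to 31.1 ± 0.0911 RPKM (log2 change -0.88). The highest limma adjusted p of these 5 was 1.57e-05. Sec13, Seh1l and Lamtor5 had log2 changes of -0.22, 0.074 and 0.11 and were not called, although Sec13 was called lower without control replicate 1 (adjusted p = 0.0306) or knockdown replicate 2 (adjusted p = 0.00389).

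Enzymes that act on the imported amino acids were called 10 higher and 12 lower among 24 tested, with a median log2 change of -0.24. That is 91.7% called, beside 67.2% of all genes tested (50.0% lower, beside 35.0%). The arginine enzymes Arg2 (arginase 2) and Ass1 (argininosuccinate synthase) rose, Arg2 from 0.397 ± 0.0356 to 7.44 ± 0.525 RPKM and Ass1 from 56.7 ± 3.33 to 139 ± 0.658 RPKM (SD, n = 2 per group), with log2 changes of 3.15 and 1.29. Arg2 had a control mean under 0.5 RPKM and entered the test only through the group where it was high. Gss, glutathione synthetase, rose by 1.38 on the log2 scale. Gldc, the glycine cleavage enzyme, fell by 1.13 from 85.3 ± 5.95 to 38.8 ± 1.83 RPKM (SD, n = 2 per group), and Bcat2, which transaminates leucine, isoleucine and valine, fell by 0.68. The highest limma adjusted p of these 5 was 1.59e-05. Oat, ornithine aminotransferase, had a log2 change of -0.014 and was not called.

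Regulators known to act on transporter genes were called 4 higher and 3 lower among 8, with a median log2 change of 0.40. That is 87.5% of a list of 8, beside 67.2% of all genes tested. Atf4 stood at 188 and 306 RPKM in the controls and at 305 and 333 RPKM in the knockdown libraries, so control replicate 2 was level with the knockdown libraries. Its log2 change of 0.41 (limma adjusted p = 0.0629) was 0.058 without control replicate 1 and 0.76 without control replicate 2. With every library kept, limma called all 8 regulators, Atf4 included, under median-ratio scaling, the replicate block or GC trends removed. Ddit3 (CHOP), a target of ATF4, stood at 4.82 and 11.2 RPKM against 60.0 and 68.1 RPKM, and rose by 3.03 on the log2 scale (adjusted p = 1.01e-05), or by 2.46 and 3.60 without control replicate 1 or 2. Myc was at 18.3 and 34.3 RPKM against 39.2 and 37.8 RPKM, called higher at 0.61 (adjusted p = 0.0293) but the call was lost without control replicate 1 (0.16, adjusted p = 0.0842) or knockdown replicate 1 (0.58, adjusted p = 0.0618). Mycn, its paralog in early embryonic cells, fell from 81.5 ± 3.49 to 41.6 ± 0.538 RPKM (SD, n = 2 per group; log2 change -0.96, adjusted p = 1.56e-06). Eif2ak4 (GCN2), the kinase that senses uncharged tRNA, fell by 0.61, and Tfe3, a factor of lysosome and nutrient genes, fell by 0.51. Trp53 (p53) rose by 0.43 and Nfe2l2 (NRF2), the antioxidant factor, by 0.40.

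**Figure D5:**
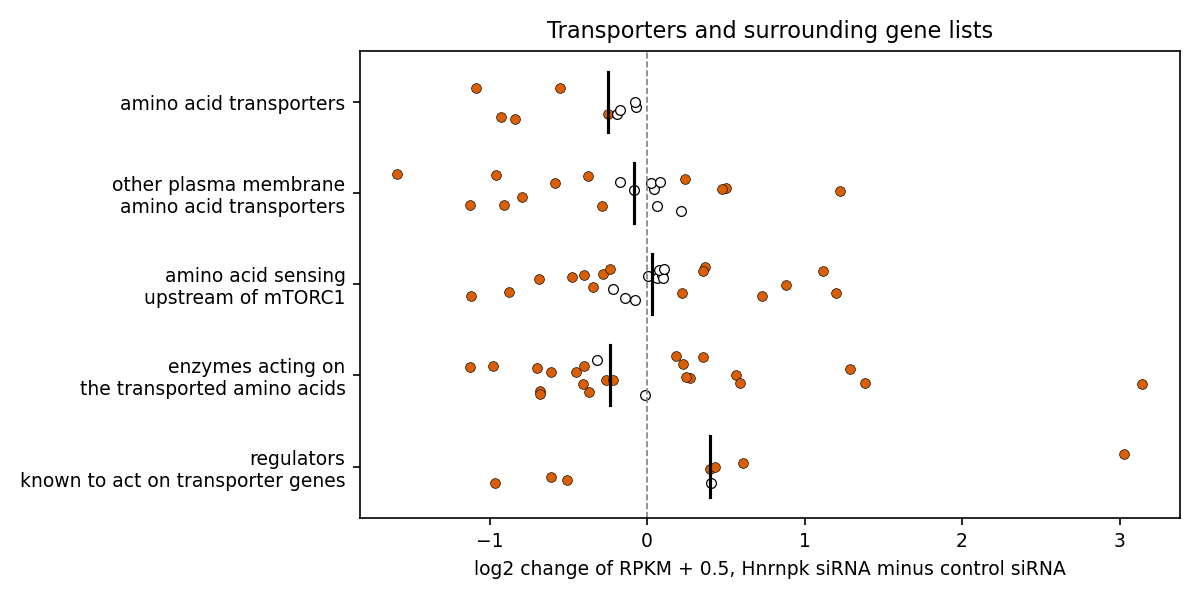
Log2 change of RPKM + 0.5 (Hnrnpk siRNA minus control siRNA) for the tested genes of the transporter set and the 4 surrounding lists; filled points were called by limma and vertical bars are medians. All 9 transporters lie below 0, between -1.09 and -0.068, with 5 called lower and 4 not called. The highest, Slc7a1, was at 0.21 without control replicate 2. Each of the other lists has called genes on both sides.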

How the data were processed

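The authors deposited RPKM per gene in 1 table with a column for each of the 4 libraries; replicates were not pooled. The submitters' processing notes name mm9, BWA and SAMtools, with no role or version. No source used here gives the annotation, the counting tool, the strand setting or how reads with several matches were counted. Per the labels' protocols the libraries were paired-end, and the RNA is described both as poly(A)-selected and as depleted of ribosomal RNA. Whole reads were not sought in the RPKM values and no count model was used; absolute depth was not determined, and no interval for counting error is given. The commonest ratio among low values (below 0.1 RPKM) gave relative depth.

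Values were analysed as log2(RPKM + 0.5), which understates changes of low genes. Testing required an average of 0.5 RPKM or more over the libraries and was done with limma 3.58.1 in R 4.3.3 (two-sided, with a mean-variance trend and 7.47 prior degrees of freedom), adjusted by Benjamini-Hochberg over all 12486 genes; the procedure was tested on simulated data. Positions come from GENCODE M21 on GRCm38, a build other than mm9, by gene identifier. BLAST 2.17.0 (95% identity, at least 100 bases) found shared transcript sequence for Slc7a11 (4.06%), Slc3a2 (6.72%) and Slc6a9 (44.8%), and none for the other 7 members.

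Members and lists were chosen with earlier results of these data known. Named genes are the members, Hnrnpk, up to 5 called genes of each of the 4 surrounding lists by lowest p whose groups do not overlap, up to 3 genes of each list that were not called and had at least 10 RPKM, and Atf4, Myc, Mycn, Nfe2l2 and Trp53. Asns, Ccdc24, Gpt2, Slc7a7, the primitive endoderm marker Pdgfra and the trophectoderm markers Eomes, Gata3, Hand1 and Tfap2c were named after their values were seen. Castor1, Castor2, Lamtor1, Lamtor4, Lamtor5, Tfap2c and Tfe3 carry older symbols in the table and were matched by identifier. Alternatives were an added 0.1 or 1 RPKM, a filter of 1 RPKM or none, median-ratio scaling, quantile normalization, no mean-variance trend, the replicate number as a block, removal of each library's GC trend, and each library left out.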

Additional observations from a re-analysis of the deposited data

How the results depend on the processing

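The number of transporters called was 5 with all libraries and stayed within 1.5 times of that under most alternatives. It was 3 with no filter on low values, where all 10 were tested, and 3 with GC trends removed. With 1 library left out at a time it lay between 3 (without Hnrnpk siRNA replicate 2) and 8 (without control replicate 1); between 3 and 8 were lower and between 0 and 1 higher. With the replicate block, 7 transporters and 8622 of all genes were called. Differences between replicates 1 and 2 of the groups had a correlation of 0.027 over genes, so little of that difference was shared. This cannot tell whether cultures of the same number were handled as pairs, which is not given. The block called Slc3a2 (adjusted p = 0.0139) and Slc38a1 (adjusted p = 0.0411) by limma in addition. Counts for all genes and for the other 4 lists stayed within 1.5 times of their values. Signs turned for Slc7a1 without control replicate 2 (0.21, against -0.35 without control replicate 1), Seh1l with GC trends removed (-0.0062), Oat with median-ratio scaling (0.0029) and without control replicate 1 (0.033, against -0.060 without control replicate 2), and Chac1 without control replicate 2 (0.45, against -1.08 without control replicate 1); apart from the left-out library itself, the cause was not tested. Slc7a5 lost its call with no filter, median-ratio scaling, no mean-variance trend, GC trends removed and without control replicate 2 or either Hnrnpk siRNA replicate. Quantile normalization called Slc3a2, Slc38a1 and Slc38a2 and not Slc6a9. Over all named genes, alternatives gained a call 19 times, lost it 14 times and left it as it was 472 times, the sign changes above included. Slc7a11 was under 0.5 RPKM in every library; absolute depth was not determined.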

Other observations

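The gap between the control libraries seen in the transporters was measured in the surrounding lists as well. Chac1, which degrades glutathione, stood at 8.96 and 26.7 RPKM in control replicates 1 and 2 and at 11.7 and 13.1 RPKM after Hnrnpk siRNA, a gap of 1.52 on the log2(RPKM + 0.5) scale between the controls; 99.99% of genes tested had a lower gap. Its log2 change between groups was -0.32 (limma adjusted p = 0.455), -1.08 without control replicate 1 and 0.45 without control replicate 2. The gap was 1.14 for Ddit3, 0.89 for Myc and 0.70 for Atf4. It was 0.57 for Gpt2, the mitochondrial alanine aminotransferase, and 0.36 for Slc7a7, a light chain that pairs with the product of Slc3a2. Gaps in the opposite direction were seen as well, such as -0.34 for Slc38a3. Gpt2 fell from 22.4 ± 6.30 to 10.9 ± 0.288 RPKM (SD, n = 2 per group; log2 change -0.98, limma adjusted p = 0.000263), and by 1.26 and 0.69 without control replicate 1 or 2. Slc7a7 fell from 51.2 ± 9.20 to 26.9 ± 0.288 RPKM (SD, n = 2 per group; log2 change -0.91, limma adjusted p = 4.45e-05). Asns, the asparagine synthetase, showed no such gap, at 240 and 230 RPKM in the controls, and rose by 0.35 after Hnrnpk siRNA (adjusted p = 0.00128). Over the lists, control replicate 2 was above control replicate 1 in 7 of 19 other transporters (36.8%) and 11 of 24 sensing genes (45.8%). It was above in 12 of 24 enzymes (50.0%) and 6 of 8 regulators (75.0%), beside 42.7% of all genes tested.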
